A study of Mus musculus with 29 samples.

Results

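Polyadenylated RNA from membrane-bound polysomes was compared with polyadenylated RNA from membrane-bound monosomes in proliferating C2C12 cells. The comparison used 4 of the 29 libraries of the series, 2 from the polysome part and 2 from the monosome part of the membrane fraction, chosen by the fraction that the labels give. C2C12 is an established mouse myoblast line, and all 4 libraries came from cells grown in DMEM with 10% fetal bovine serum and antibiotics, with no other treatment in the labels. The 3'READS+ method, which sequences the end of a transcript next to its poly(A) tail, gave a read count for each polyadenylation site, and the counts were summed per gene. The spread was estimated in a fit of 16 polysome and monosome libraries, which also covered the cytosol and differentiating cells. The labels give differentiating polysome libraries a medium with 2% serum and differentiating monosome libraries one with 10% serum. Libraries are numbered 1 and 2, but the labels do not say that the numbers stand for separate cultures. The p-values thus measure the spread between libraries of the same group in that fit, which may be technical.

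An mRNA that many ribosomes translate at once sediments as a polysome, while one that carries a single ribosome, or that sits in a particle of like size, is found in the monosome part of a gradient. Most mRNAs for secreted and membrane proteins reach the endoplasmic reticulum (ER) while they are being translated, through a signal peptide or a first transmembrane segment, and are held there by the ribosomes that translate them. The membrane fraction of a cell also holds mRNAs of cytosolic and nuclear proteins. A myoblast makes large amounts of matrix, adhesion and lysosomal protein, which are translated at the ER.

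The polysome libraries held 8237846 and 5846274 reads in named genes, and the monosome libraries held 4874077 and 5354013. Levels are given as CPM, the count scaled to a TMM-adjusted library of 1000000 reads, and each read marks a transcript end whatever the transcript's length. A CPM value is a share of its own library, so the total RNA of the 2 gradient parts was not compared. Of 8 myoblast markers, 7 were measured above the filter on low counts, with Cdh15 at 579 and 777 CPM in polysomes and 335 and 614 CPM in monosomes. Pax7, the marker of quiescent satellite cells, had reads in the first monosome library only. Among markers of differentiated muscle, Myh8 was at 0 in all 4 libraries, and Tmem8c (myomaker) had reads in all 4 with 2.64 CPM at most. Myog, Myh3, Ckm, Tnnt3 and Casq2 also had reads in all 4, with 4.03 CPM at most. Acta1 (skeletal actin) varied with the library number, at 21.0 and 144 CPM in polysomes and 30.9 and 93.3 CPM in monosomes. Of 4 markers of other cell types, Pecam1 and Epcam, of endothelial and epithelial cells, were at 0. Ptprc had reads in the second monosome library only, and Pdgfra had 1.98 and 1.47 CPM in polysomes and 2.09 and 1.76 CPM in monosomes. Cd63, a tetraspanin of endosomes, was the most abundant gene of both polysome libraries, at 25785 and 29680 CPM, against 9012 and 16970 CPM in monosomes.

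Genes higher in membrane polysomes than in membrane monosomes included mRNAs of ER, cell surface and secreted proteins, and genes lower there included snoRNA host RNAs and other long noncoding RNAs. Of 11176 genes tested, 40 were higher and 49 lower in polysomes at an adjusted p under 0.05, which is 0.796% of the genes (quasi-likelihood test of edgeR, p-values adjusted by Benjamini and Hochberg over all genes). The rises were between 1.26 and 2.13 on the log2 scale, with a median of 1.63, and the falls reached -4.22, with a median of -2.29. The median over all genes tested was 0.22 on the log2 scale, and it was 0.04 when DESeq2 size factors replaced the TMM factors. With those factors 18 genes were higher and 73 lower, so the balance of the directions depended on the scaling.

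When the polysome and monosome libraries of the same number were compared within their pair, 2007 genes were higher (18%) and 706 lower (6.32%), or 24.3% of those tested, and all 89 genes above were among them with the same direction. The labels do not give this pairing, which was taken from deviations that same-numbered libraries shared in these counts. The unpaired call rested on all 4 libraries. No gene passed without the first polysome library, 3 passed without the second polysome library, 23 without the first monosome library and 25 without the second. None passed when the fit held only the 8 proliferating or only the 4 membrane libraries, where 1813 and 1526 genes had an unadjusted p under 0.05, against 1572 in the fit of all 16. Results below are from the fit of all 16 gradient libraries, and paired values are given beside them.

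**Figure D1:**
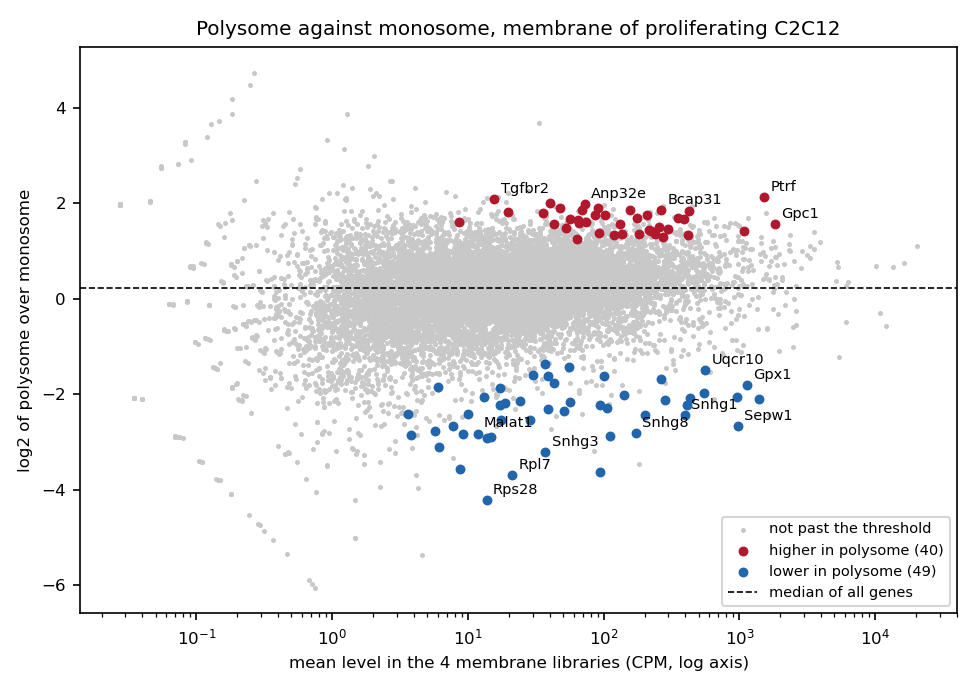
Each point is a gene, with its mean level in the 4 membrane libraries (CPM, log axis) against the log2 ratio of polysome over monosome. The 40 genes higher in polysomes (red) lie between 1.26 and 2.13, the 49 lower ones (blue) reach down to -4.22, and the dashed line is the median of all genes at 0.22.

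The snoRNA host RNAs had the lowest median of the 23 gene lists examined. These transcripts are spliced and polyadenylated, carry small nucleolar RNAs in their introns and encode no long protein. Of 9 tested, 6 were lower in polysomes and none was higher, with a median of -2.85 on the log2 scale against 0.22 for all genes. In the paired comparison all 9 were lower.

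Snhg8 stood at 33.0 and 52.8 CPM in polysomes and at 280 and 324 CPM in monosomes, a log2 change of -2.82 (SE 0.33, adjusted p = 0.00467). Snhg1, the most abundant of them, stood at 76.8 and 169 CPM in polysomes and at 486 and 849 CPM in monosomes (log2 change -2.44, SE 0.46, adjusted p = 0.0322). Snhg12 measured 52.7 and 73.7 CPM in polysomes against 323 and 359 CPM in monosomes, with a log2 change of -2.43 (SE 0.34, adjusted p = 0.00785). For each of these 3 RNAs both monosome libraries were above both polysome libraries. The groups also did not overlap in any of the 89 called genes, nor in 47.1% of all genes tested. Snhg3 had 6.27 and 8.25 CPM in polysomes and 45.3 and 89.0 CPM in monosomes, and fell by 3.21 on the log2 scale (SE 0.50, adjusted p = 0.0150). Snhg4 and Snhg10, both of lower abundance, were lower as well, by -2.85 and -2.18.

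The start regions of the host RNAs are shown because several host genes are known to begin transcription in a run of pyrimidines, the mark of the 5' terminal oligopyrimidine (TOP) class that also holds ribosomal protein mRNAs. RefSeq gave a start for 7 of the 9 hosts tested. The sequences below run from 15 bases before to 15 bases from the annotated start on, 5' to 3' on the strand of the gene (GRCm38.p6), and capitals mark the longest run of C and T that reaches within 5 bases of the start. Snhg1 (chr19:8723472-8723501), Snhg3 (chr4:132353672-132353701), Snhg8 (chr3:123508322-123508351), Snhg10 (chr12:105032265-105032294) and Snhg12 (chr4:132308663-132308692) were lower in polysomes.
Snhg1: gttgttcttgtcggcctcaTTTTTCCTTgt
Snhg3: tagtcgaccacgcctgaCTTCCgggcgtta
Snhg8: gcaccgttcagaagTCTCTTTggctgcgat
Snhg10: cttccggTTCCTTTTgcggtgattgctacg
Snhg12: ggccgttctcagTCCTTTCTCgcttcatcc

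A run of at least 6 pyrimidines, read on the strand of the gene only, stood there in 6 of the 7 hosts with a start and in 20.2% of the 32851 starts of the RefSeq table. Among the 5 shown, Snhg3 had a run of 5. The run spanned the annotated start in Snhg8 and Snhg12, ended just before it in Snhg10 and began after it in Snhg1 and Snhg3. A match thus does not mean that the annotated transcript begins in the run. A match describes these letters at an annotated start and was not tied to the start used in these cells. Snhg7 and Snhg9, tested but not called, had runs of 6 and 9. Among hosts not tested, Snhg18 had a run of 10, and Gas5 and Snhg17 had runs of 3 or 6 by annotated start. Snhg5, Snhg11, Snhg15, Snhg16, Snhg20 and Zfas1, also not tested, had runs of 4 at most.

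Other long noncoding RNAs were also among the genes lower in polysomes. By RefSeq biotype, 15 of 139 lncRNA genes tested were lower and none was higher, with a median of -1.35. These 139 hold the 9 snoRNA host RNAs, and of the other 130, 9 were lower and none was higher, with a median of -1.22. In the paired comparison 68 of the 139 were lower and 1 was higher, and of the other 130, 59 were lower and 1 was higher. Of 10927 protein-coding genes, 40 were higher and 31 lower, 1996 were higher and 624 lower when paired, and the median was 0.23. Malat1, which resides in nuclear speckles, had 2.20 and 3.67 CPM in polysomes and 23.0 and 18.4 CPM in monosomes (log2 change -2.83, SE 0.54, adjusted p = 0.0359). Pvt1 measured 18.3 and 21.1 CPM in polysomes and 66.6 and 67.6 CPM in monosomes (log2 change -1.77, SE 0.32, adjusted p = 0.0277). Neat1, the scaffold of paraspeckles, had 43.3 and 17.1 CPM in polysomes and 424 and 249 CPM in monosomes, with an adjusted p of 0.0935 unpaired and 1.4e-13 paired. Xist overlapped between the groups, at 36.1 and 63.8 CPM in polysomes and 40.7 and 31.3 CPM in monosomes.

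The 4 nuclear RNA markers summed to 81.6 and 84.5 CPM in polysomes and to 487 and 299 CPM in monosomes, with Meg3 at 0 in all 4 libraries. Neat1, which did not pass unpaired, made up most of the monosome sums, at 424 and 249 CPM. Malat1 was lower and Xist overlapped between the groups, so the sums do not describe the markers as a set. The part of nuclear RNA in the lower polysome share of the noncoding RNAs was not tested.

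Ribosomal protein mRNAs lay toward the monosome side of the median of all genes, but few passed the unpaired test. The median was -0.42 for 44 large subunit genes and -0.92 for 30 small subunit genes, and no small subunit gene was above the median of all genes. Rpl7 and Rps28 were lower, and both stood at low levels: Rpl7 had 2.09 and 4.03 CPM in polysomes and 31.3 and 47.3 CPM in monosomes (log2 change -3.70, SE 0.51, adjusted p = 0.00770), and Rps28 had 0.990 and 1.83 CPM in polysomes and 15.5 and 36.7 CPM in monosomes (log2 change -4.22, SE 0.85, adjusted p = 0.0381). Many ribosomal protein genes have near-identical processed copies that can take or lose reads in mapping, so both values are uncertain.

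The most abundant members did not pass the unpaired test. Rpl8 measured 10589 and 8785 CPM in polysomes and 12807 and 10968 CPM in monosomes (log2 ratio -0.30, adjusted p = 0.799). Rps15 depended on the library number, at 5851 and 13367 CPM in polysomes and 9479.7 and 19187 CPM in monosomes, and its groups overlapped (log2 ratio -0.58, adjusted p = 0.741). Rps20, at 2202 and 4292 CPM in polysomes and 4771 and 10342 CPM in monosomes, had a log2 ratio of -1.22 with an adjusted p of 0.418 unpaired and 0.000467 paired. In the paired comparison 13 large and 16 small subunit genes were lower and 1 large subunit gene was higher. Translation factors were spread on both sides of 0: of 38, 1 was higher, Eif4h, the partner of the eIF4A helicase, at 88.4 and 84.2 CPM in polysomes and 29.3 and 24.8 CPM in monosomes (log2 change 1.67, SE 0.33, adjusted p = 0.0370). With DESeq2 size factors Eif4h no longer passed (adjusted p = 0.0583). In the paired comparison 9 translation factors were higher and 4 lower.

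Of 12 selenoprotein mRNAs, which read a stop codon as selenocysteine, 2 were lower and 1 was higher, and 2 were lower and 4 higher in the paired comparison. Sepw1, a small cytosolic selenoprotein, had the smallest adjusted p of the 34 called genes among the 115 named ones: 241 and 288 CPM in polysomes and 1491 and 1895 CPM in monosomes (log2 change -2.68, SE 0.29, adjusted p = 0.00359). Gpx1, a cytosolic glutathione peroxidase, had 500 and 510 CPM in polysomes and 1711 and 1850.5 CPM in monosomes (log2 change -1.82, SE 0.36, adjusted p = 0.0370). Selk, an ER membrane protein, went the other way, at 189 and 302 CPM in polysomes and 64.1 and 71.1 CPM in monosomes (log2 change 1.86, SE 0.37, adjusted p = 0.0381). Sepn1, also an ER membrane protein, had a log2 ratio of 1.23 that passed only in the paired comparison (adjusted p = 0.338 unpaired and 2.22e-05 paired).

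Some mRNAs of small cytosolic and mitochondrial proteins were among those lower in polysomes. Tmsb4x, which encodes the actin-binding peptide thymosin beta 4, had 99.4 and 112 CPM in polysomes and 565 and 359 CPM in monosomes (log2 change -2.13, SE 0.38, adjusted p = 0.0265). Uqcr10, a small subunit of respiratory complex III, had 266 and 319 CPM in polysomes and 812 and 836 CPM in monosomes (log2 change -1.50, SE 0.30, adjusted p = 0.0393), whereas the complex I subunit Ndufa11 was higher, at 518 and 684 CPM in polysomes and 215 and 259 CPM in monosomes (log2 change 1.34, SE 0.27, adjusted p = 0.0406). Uqcr10 passed with DESeq2 size factors as well, and Ndufa11 did not (adjusted p = 0.0641). Over 74 respiratory chain genes the median was 0.42, with 22 higher and 5 lower in the paired comparison. Pigm, a mannosyltransferase of GPI anchor synthesis, was lower although its protein is an ER membrane protein: 18.3 and 35.0 CPM in polysomes and 116 and 278 CPM in monosomes (log2 change -2.89, SE 0.60, adjusted p = 0.0420).

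Genes named Zfp, a prefix for zinc finger proteins, were noticed among the falls after their values were seen. Of 264 tested, 5 were lower and none higher, with a median of -0.43, and 59 were lower and 4 higher in the paired comparison. Zfp597 measured 9.57 and 7.34 CPM in polysomes and 41.8 and 56.7 CPM in monosomes (log2 change -2.53, SE 0.37, adjusted p = 0.0105), and Zfp329 measured 5.17 and 4.95 CPM in polysomes and 27.6 and 32.0 CPM in monosomes (log2 change -2.55, SE 0.47, adjusted p = 0.0275). The same direction was seen for Ranbp6, an importin family member, at 2.42 and 4.03 CPM in polysomes and 22.1 and 26.5 CPM in monosomes (log2 change -2.93, SE 0.54, adjusted p = 0.0291), and for Dqx1, a DEAQ-box helicase-like gene, with a log2 change of -2.90.

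**Figure D2:**
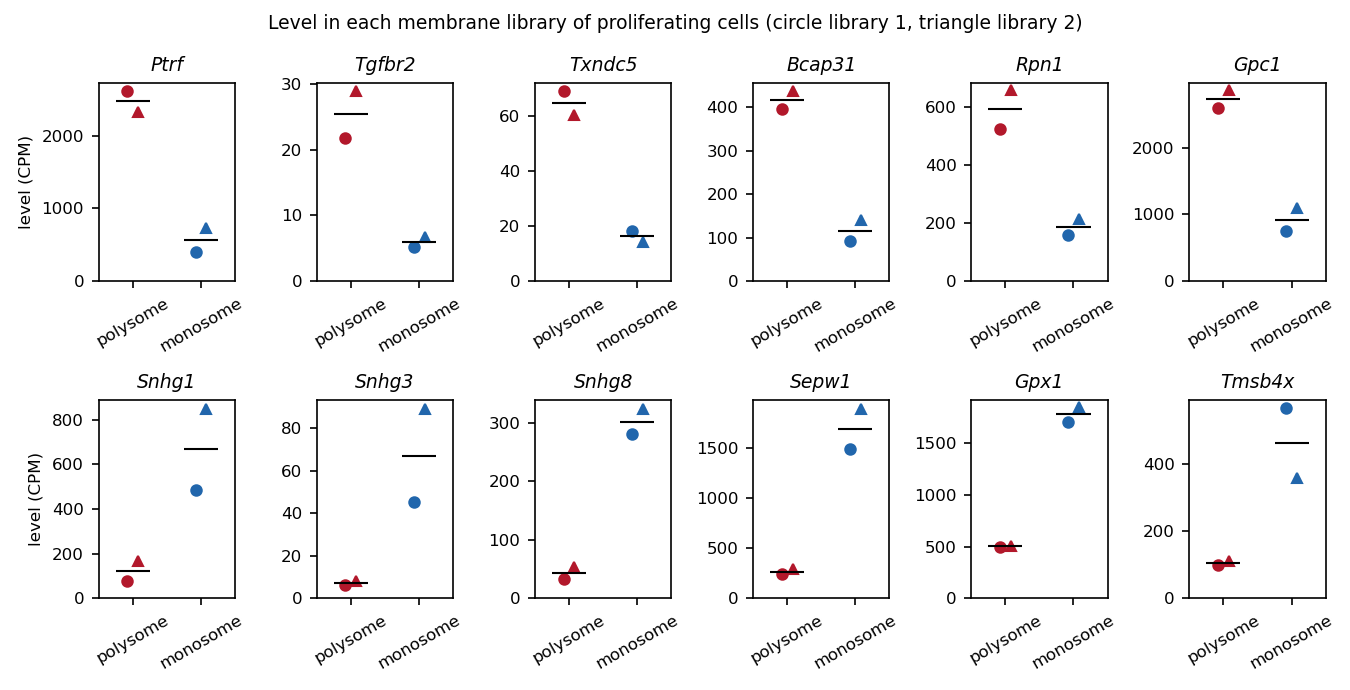
Level of 12 genes in each membrane library (CPM, axes from 0), polysome on the left and monosome on the right, with circles for library 1, triangles for library 2 and a bar at the mean of 2. The 6 upper genes were higher and the 6 lower genes were lower in polysomes.

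The mRNAs of ER chaperones and folding enzymes had the highest list median, 1.16 on the log2 scale. Of 30 tested, 3 were higher and none lower, 28 lay above the median of all genes, and 24 were higher and none lower in the paired comparison. With DESeq2 size factors 1 of the 3 passed. Txndc5, a disulfide isomerase of the ER lumen, had 69.3 and 60.3 CPM in polysomes and 18.4 and 14.1 CPM in monosomes (log2 change 2.00, SE 0.40, adjusted p = 0.0381, or 0.0623 with DESeq2 size factors). Sdf2l1, a partner of the chaperone BiP, had 117 and 149 CPM in polysomes and 38.3 and 40.9 CPM in monosomes (log2 change 1.75, SE 0.34, adjusted p = 0.0363).

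The 3 most abundant chaperone mRNAs had smaller ratios. Calr (calreticulin), at 1173 and 1815 CPM in polysomes and 461 and 979 CPM in monosomes, had a log2 ratio of 1.05 with an adjusted p of 0.209 unpaired and 0.000244 paired. Manf, a secreted stress-induced factor, had a log2 ratio of 0.79 (adjusted p = 0.329 unpaired and 0.00826 paired). Pdia3 overlapped between the groups, with 1114 and 1634 CPM in polysomes and 975 and 1714 CPM in monosomes (log2 ratio 0.03, adjusted p = 0.985).

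Among 30 genes of the translocon, signal peptidase and oligosaccharyltransferase, the machines that take up, trim and glycosylate new chains, the median was 0.79, with 1 higher, 21 higher in the paired comparison and 1 lower there. Rpn1 (ribophorin I) had 525 and 657 CPM in polysomes and 159 and 213 CPM in monosomes (log2 change 1.67, SE 0.33, adjusted p = 0.0363, or 0.0554 with DESeq2 size factors, where no gene of the list passed). Sec61a1, the channel of the translocon, had 359 and 410 CPM in polysomes and 126 and 94.7 CPM in monosomes (log2 ratio 1.80, adjusted p = 0.0600 unpaired and 1.57e-07 paired). Ssr2 and Rpn2 had ratios of 1.16 and 0.75 that passed only when paired (adjusted p = 0.000169 and 0.00780).

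At the cell surface, Tgfbr2, a receptor of TGF-beta, had 21.8 and 29.0 CPM in polysomes and 5.15 and 6.71 CPM in monosomes (log2 change 2.09, SE 0.38, adjusted p = 0.0274). It was the only one of 46 integrins and receptors past the unpaired threshold. The list's median was 0.76, and 24 were higher and none lower in the paired comparison, among them Itgb5 (log2 ratio 1.64, adjusted p = 0.0557 unpaired and 3.25e-07 paired) and the hyaluronan receptor Cd44 (1.42, adjusted p = 0.227 unpaired and 6.7e-06 paired). Itga5, a fibronectin receptor subunit, had overlapping groups (log2 ratio 0.28, adjusted p = 0.880).

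Tetraspanins and small membrane proteins had a median of 1.02 over 31 genes, with 3 higher and 28 higher in the paired comparison. All 31 lay above 0, against 6962 of all 11176 genes tested. Gpc1, a GPI-anchored heparan sulfate proteoglycan, had 2599 and 2862 CPM in polysomes and 751 and 1089 CPM in monosomes (log2 change 1.57, SE 0.31, adjusted p = 0.0363). Bcap31, an ER membrane export factor, had 395 and 439 CPM in polysomes and 91.8 and 140 CPM in monosomes (log2 change 1.85, SE 0.34, adjusted p = 0.0275). Of 29 lysosomal protein genes none passed unpaired and 19 were higher paired, with a median of 0.70, and the cathepsin gene Ctsd had 2997 and 3278 CPM in polysomes and 1392 and 1744 CPM in monosomes (log2 ratio 1.00, adjusted p = 0.395 unpaired and 0.000999 paired).

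Collagens lay near the median of all genes. Of 17 genes none was higher or lower, 1 was higher in the paired comparison, and the median was 0.10, or -0.10 with DESeq2 size factors. Col3a1 had 2356 and 1592 CPM in polysomes and 3829 and 2147 CPM in monosomes, with overlapping groups (log2 ratio -0.60, adjusted p = 0.610). Col6a2 (0.85, adjusted p = 0.456 unpaired and 0.0148 paired) was the collagen with the lowest p.

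The 39 other matrix and secreted genes lay between, with a median of 0.56, 1 higher and none lower, and 14 higher and 1 lower in the paired comparison. Timp2, an inhibitor of matrix metalloproteases, had 551 and 783 CPM in polysomes and 135 and 240 CPM in monosomes (log2 change 1.83, SE 0.37, adjusted p = 0.0381). Fn1 (fibronectin) had the opposite sign, at 206 and 242 CPM in polysomes and 552 and 474 CPM in monosomes, with non-overlapping groups, as in 47.1% of all genes (log2 ratio -1.19, adjusted p = 0.0914 unpaired and 0.000144 paired). Over the 7 lists of secretory and membrane proteins together, 204 of 222 genes had a ratio above 0, against 6962 of all 11176 genes tested. Of the 222, 9 were higher, none was lower and the median was 0.79. In the paired comparison 131 of the 222 were higher and 2 lower, and with DESeq2 size factors 5 were higher and none lower.

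Ptrf, which encodes cavin-1, the coat protein of caveolae, had the largest rise of the 12 named on that side. It had 2617 and 2332 CPM in polysomes and 401 and 730 CPM in monosomes (log2 change 2.13, SE 0.34, adjusted p = 0.0165). Cavin-1 has no signal peptide and is made in the cytosol. Its log2 ratio in the cytosol of the same cells was 2.96 (SE 0.35, adjusted p = 0.000256), and the ratios of the 2 fractions were not shown to differ (difference -0.83, SE 0.47, adjusted p = 0.350). The list of 11 caveolin and cavin genes had a median of 0.75, and 6 were higher in the paired comparison. Anp32e, a histone H2A.Z chaperone of the nucleus, likewise had 116 and 116 CPM in polysomes against 23.5 and 35.0 CPM in monosomes (log2 change 1.99, SE 0.31, adjusted p = 0.0150).

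**Figure D3:**
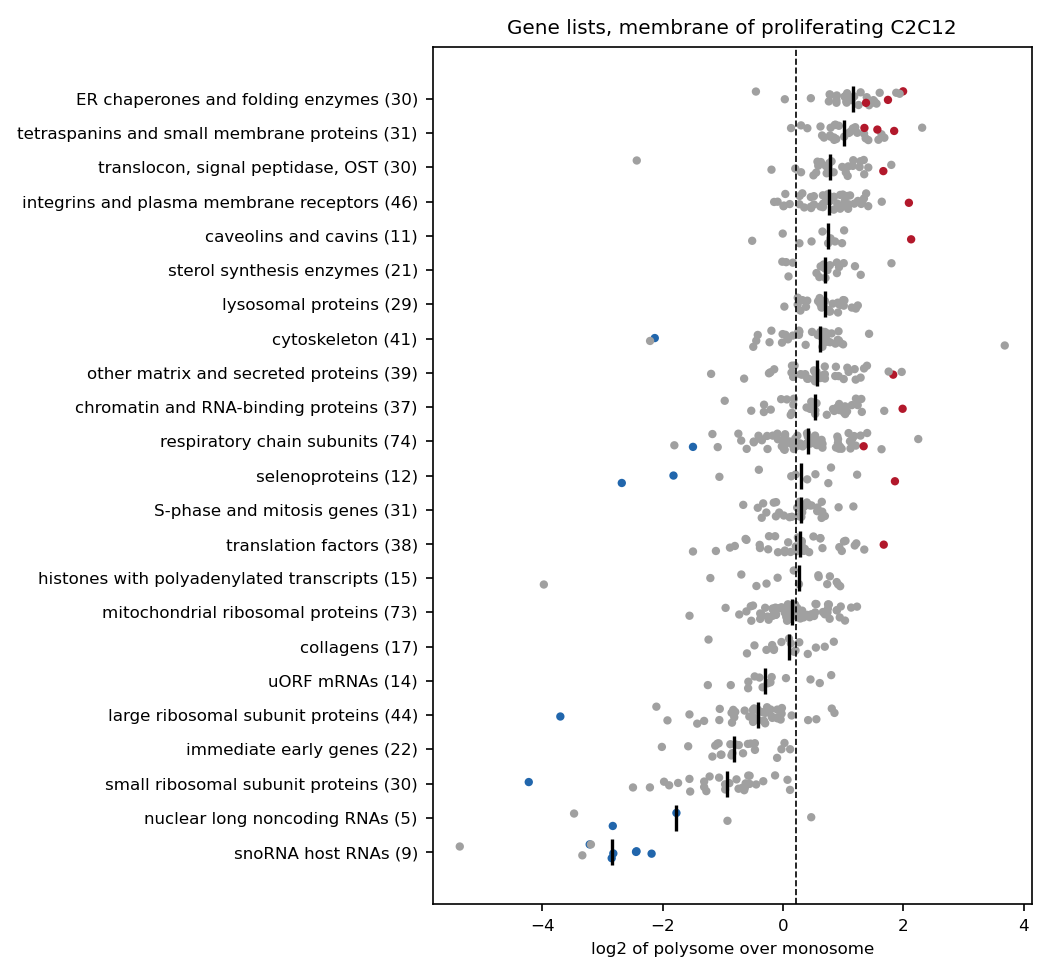
Log2 ratio of polysome over monosome for the tested members of 23 gene lists (number tested in parentheses), with red for higher, blue for lower and grey for not past the threshold. Black bars are list medians, from -2.85 for snoRNA host RNAs to 1.16 for ER chaperones, and the dashed line is the median of all genes at 0.22.

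Immediate early genes, transcribed soon after a growth stimulus, lay on the monosome side. The median of 22 was -0.81, none was above the median of all genes, none passed unpaired, and 9 were lower paired. Zfp36 (tristetraprolin) had 47.2 and 42.0 CPM in polysomes and 234 and 126 CPM in monosomes (log2 ratio -2.01, adjusted p = 0.0914 unpaired and 7.61e-08 paired), and Ier2 had 503 and 360 CPM in polysomes and 946 and 807 CPM in monosomes (log2 ratio -1.02, adjusted p = 0.209 unpaired and 0.000495 paired).

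The 14 mRNAs with upstream reading frames had a median of -0.30, with none past the unpaired threshold and 1 higher and 2 lower in the paired comparison. Ddit3, a stress transcription factor held back by an upstream frame, had 40.8 and 42.9 CPM in polysomes and 95.7 and 103 CPM in monosomes (log2 ratio -1.25, adjusted p = 0.0628 unpaired, 0.0307 with DESeq2 size factors and 4.53e-05 paired), and Atf4 had 777 and 562 CPM in polysomes and 1328 and 1114 CPM in monosomes (log2 ratio -0.87, adjusted p = 0.267 unpaired and 0.00380 paired). Azin1, in which polyamines act on the upstream frame, lay on the other side, with a ratio of 0.80.

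The medians of the remaining lists ran from 0.14 to 0.71, a range that reaches the lysosomal list (0.70) and the other matrix and secreted list (0.56). Mitochondrial ribosomal proteins had a median of 0.14 over 73 genes, or -0.04 with DESeq2 size factors. Sterol synthesis enzymes had a median of 0.71 over 21 genes, chromatin and RNA-binding proteins 0.54 over 37, cytoskeleton genes 0.62 over 41, polyadenylated histones 0.27 over 15 and S-phase and mitosis genes 0.30 over 31. Of these 6 lists, 1 chromatin gene was higher and 1 cytoskeleton gene lower in the unpaired test. In the paired comparison 9 sterol genes were higher and none lower, 14 chromatin genes were higher and 1 lower, and 16 cytoskeleton genes were higher and 2 lower. For mitochondrial ribosomal proteins 11 were higher and 3 lower when paired, for histones 3 were higher and 2 lower, and for S-phase and mitosis genes 5 were higher and 1 lower. The proliferation genes Mki67 and Cenpe followed the library number, with overlapping groups and ratios of 0.11 and -0.15.

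The cytosol of the same cells gave a separate polysome to monosome ratio from 4 other libraries, and the difference between the 2 ratios was tested as an interaction. The ratio differed for 815 genes, 7.29% of those tested, with 692 higher (6.19%) and 123 lower (1.1%) in the membrane than in the cytosol. Leaving out 1 of the 8 libraries gave between 387 and 623 such genes. With library number as a block per state (proliferating or differentiating), shared by both fractions, 2018 were higher and 1162 lower. Genes of the 7 secretory and membrane lists made up 88 of the 692 and none of the 123: their median ratio was 0.79 in the membrane and -1.53 in the cytosol. In the cytosol, 1283 genes were higher and 1431 lower in polysomes, or 24.3%.

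Rpn1 showed the contrast in all 8 libraries. Beside its membrane values above, it had 11.3 and 11.6 CPM in cytosolic polysomes and 135 and 114 CPM in cytosolic monosomes, so that its log2 ratio was 5.11 higher in the membrane (SE 0.48, adjusted p = 0.000352). Sgcb (beta-sarcoglycan), a membrane protein of muscle, had 86.3 and 106 CPM in polysomes and 41.9 and 43.9 CPM in monosomes of the membrane, and 2.86 and 1.28 CPM in polysomes and 44.9 and 31.6 CPM in monosomes of the cytosol (difference 5.36, SE 0.51, adjusted p = 0.000352). Fkbp7, an ER prolyl isomerase (5.03), and Lrpap1, an ER chaperone of lipoprotein receptors (4.97), followed, and Hiat1 differed by 4.89 with almost equal levels in membrane polysomes, 19.5 and 20.5 CPM, and membrane monosomes, 19.6 and 18.1 CPM.

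In the other direction the 5 largest differences were at low levels. Rbbp7, a histone-binding protein, had 13.97 and 16.69 CPM in polysomes and 19.4 and 21.6 CPM in monosomes of the membrane, and 14.7 and 19.1 CPM in polysomes and 2.20 and 2.21 CPM in monosomes of the cytosol (difference -3.34, SE 0.73, adjusted p = 0.0129). Wdr5b, the RNA-binding protein gene Mex3a, the ESCRT gene Chmp1b and the prostacyclin receptor gene Ptgir differed by -3.48, -3.40, -3.29 and -3.23.

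The 49 genes that were lower in membrane polysomes and the 40 that were higher behaved differently in the cytosol. Of the 49, 40 were lower and none was higher in cytosolic polysomes, and 4 had a lower and 1 a higher ratio in the membrane by the test of the difference. Of the 40, 12 were higher and 14 were lower in cytosolic polysomes, and 23 had a higher and 1 a lower ratio in the membrane. Bcap31 was one of the 14, with 16.5 and 10.6 CPM in cytosolic polysomes and 45.2 and 50.2 CPM in cytosolic monosomes (difference 3.66, SE 0.48, adjusted p = 0.000953). Anp32e was the gene with the lower ratio: it had 165 and 184 CPM in cytosolic polysomes and 15.2 and 11.1 CPM in cytosolic monosomes (difference -1.75, SE 0.44, adjusted p = 0.0266). Across the 11176 genes, the Pearson correlation of the membrane and cytosol ratios was 0.24, as a description over genes that share libraries.

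**Figure D4:**
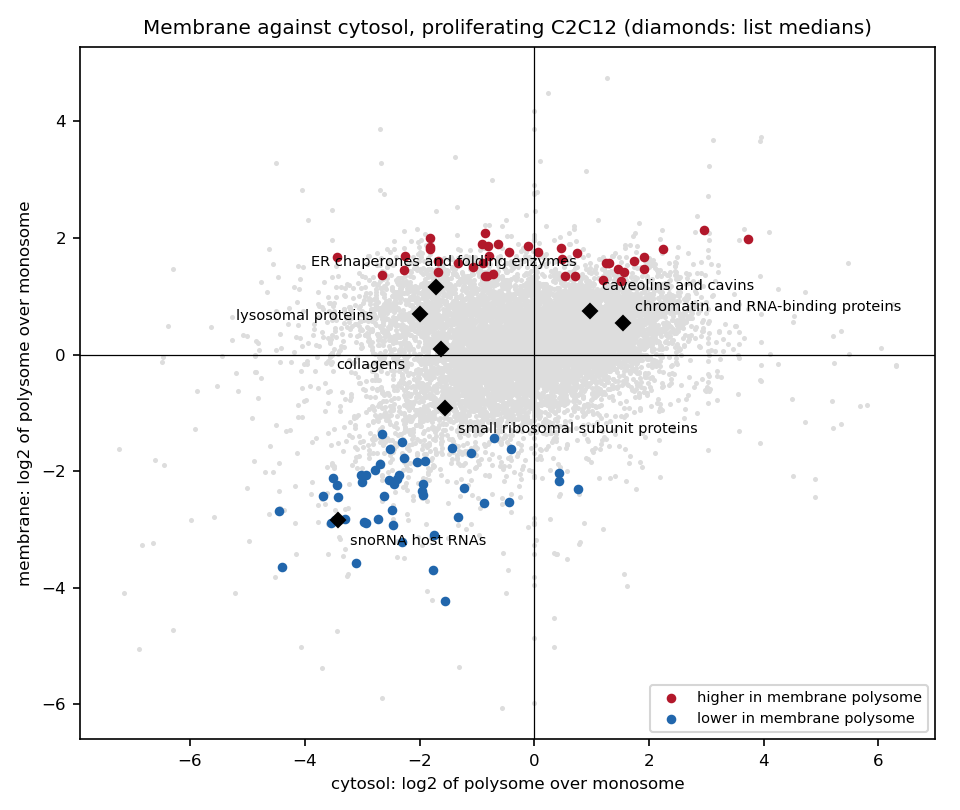
Log2 ratio of polysome over monosome in the membrane (vertical) against the cytosol (horizontal) of proliferating cells, 1 point per gene, red for the 40 genes higher and blue for the 49 lower in membrane polysomes, and black diamonds for list medians. The red genes stand on both sides of 0 on the horizontal axis, and 46 of the 49 blue genes stand left of 0.

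In differentiating cells the membrane comparison gave 229 genes higher (2.05%) and 213 lower (1.91%) in polysomes, or 3.95%. The labels give the differentiating polysome libraries a medium with 2% serum and the differentiating monosome libraries one with 10% serum. Medium and gradient part therefore cannot be told apart there. Of the 40 genes higher in proliferating membrane polysomes, 30 were higher in differentiating ones and all 40 had a ratio above 0. Of the 49 lower ones, 30 were lower and 48 had a ratio below 0. Over all 11176 genes tested, 6868 had a ratio above 0 and 4302 below 0 in differentiating membranes. No gene's ratio differed between proliferating and differentiating membranes in edgeR's quasi-likelihood test, where 322 had an unadjusted p under 0.05. DESeq2 called 1, and with library number as a block per state 82 were higher and 65 lower in proliferating cells. The ribosomal protein lists had lower medians in differentiating cells: for the large subunit -0.42 in proliferating and -1.98 in differentiating membranes, and for the small subunit -0.92 in proliferating and -2.29 in differentiating membranes. Those differences of medians were not tested.

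Site use was compared between polysomes and monosomes of the membrane within genes. A pair of sites, the proximal nearer to the start of the gene and the distal farther along, was measured in 4553 genes, with the sites 25 to 9871 nt apart (median 677 nt). The median log2 ratio of distal to proximal reads was 0.52 and 0.45 in polysomes and 0.49 and 0.44 in monosomes. The means differed by 0.02, less than the spread within polysomes (exact permutation test, two-sided p = 0.667, where 2 against 2 libraries cannot go below 0.333). Single pairs varied more than that: in the 3187 with a mean of at least 50 reads, the absolute log2 change had a median of 0.33 and a 90th percentile of 0.95. By distance, the median log2 change was -0.03 for 1180 pairs under 200 nt apart, 0.02 for 1550 pairs at 200 nt to under 1000 nt and 0.05 for 1823 pairs farther apart.

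One pair passed the threshold, 0.022% of those tested, and 109 had an unadjusted p under 0.05, 53 toward the distal and 56 toward the proximal site. The pair was in Msh3, a DNA mismatch repair gene on chromosome 13 (mm9, minus strand), with a proximal site at 92990202 and a distal site at 92981841. In polysomes, 0 of 75 and 0 of 16 reads were at the proximal site, which allows a proximal share of up to 4% and 18.8% (3 counts, counting error only). In monosomes, 201 reads were proximal and 42 distal in the first library, and 83 proximal and 30 distal in the second. The distal to proximal ratio over both libraries was at least 120-fold higher in polysomes, taking 3 proximal reads for the polysome group as the floor (adjusted p = 0.000438, or 0.177 without the first polysome library and 0.0740 in a fit of the 4 libraries alone). Without the first polysome library that bound was 21.0-fold, and it was between 83.9-fold and 145-fold without 1 of the others. Differentiating membranes had 96.3% and 93.8% distal reads in polysomes and 4.46% and 3.18% in monosomes, while in the cytosol of proliferating cells the share was 100% and 100% in polysomes and 90.9% and 95.7% in monosomes. The difference between membrane and cytosol could not be estimated, since no polysome library of either fraction had a proximal read. The fit therefore gave no usable test of it.

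With library number as a block per state, shared by all fractions of that state, 28 pairs passed, or 0.615%. Of these, 15 moved toward the distal and 13 toward the proximal site in polysomes. Paired values of site pairs are from this fit, while those of genes came from pairing polysomes and monosomes within their fraction. As whole genes, none of the 28 was called higher or lower in the unpaired test and 10 were in the paired one. In 20 of the 28 the sites were more than 2 kb apart, or 71.4%, against 21.0% of all pairs. The pairs described next had the lowest unpaired p in each direction, and none passed unpaired.

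Osgep, a tRNA-modifying enzyme gene on chromosome 14, had 98.3% and 92.3% of its reads at the distal site in polysomes and 76.5% and 62.1% in monosomes (adjusted p = 0.128 unpaired and 1.26e-12 paired). For Prnp, the prion protein gene on chromosome 2 whose sites lie 7120 nt apart, the distal share was 85.8% and 88.9% in polysomes and 44.1% and 48.7% in monosomes (adjusted p = 0.189 unpaired and 1.99e-08 paired). In the cytosol Prnp had no such order, with 53.5% and 45.1% in polysomes and 57.1% and 70.7% in monosomes (test of the difference of membrane and cytosol, adjusted p = 1 unpaired and 0.00159 paired). Pcbd2, a dehydratase gene, had 93.3% and 82.0% in polysomes and 53.9% and 32.8% in monosomes (adjusted p = 0.199 unpaired and 7.69e-12 paired). In the cytosol its log2 change was 3.81, in the same direction (unpaired adjusted p = 0.0772).

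Toward the proximal site, Rnaseh2c, a subunit gene of RNase H2, had a distal share of 15.8% and 11.6% in polysomes and 46.4% and 52.8% in monosomes (adjusted p = 0.402 unpaired and 1.77e-06 paired). Fem1a, a substrate receptor of a ubiquitin ligase, had 25.5% and 27.9% in polysomes and 48.4% and 54.5% in monosomes over a total of 1241 and 648 reads in polysomes and 1098 and 1089 reads in monosomes (adjusted p = 0.882 unpaired and 5.59e-05 paired). Btg2, an antiproliferative gene, had 75.7% and 61.8% in polysomes and 94.2% and 94.6% in monosomes (adjusted p = 0.882 unpaired and 0.000136 paired). Klhl7 had 5 of 103 and 0 of 57 reads at its distal site in polysomes and 20 of 75 and 24 of 60 in monosomes (adjusted p = 0.311 unpaired and 0.00165 paired). The log2 changes in the cytosol were in the same direction, and none passed unpaired. They were -2.11 for Rnaseh2c, -0.47 for Fem1a, -3.03 for Btg2 and -3.90 for Klhl7.

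Vapb, an ER tether of other organelles, had a distal share of 12.4% and 8.75% in polysomes and 35.2% and 27.0% in monosomes (adjusted p = 0.882 unpaired and 0.00603 paired). The order was the opposite elsewhere: 20.5% and 27.4% in polysomes and 7.61% and 7.14% in monosomes of differentiating membranes, and 7.13% and 5.16% in polysomes and 2.19% and 1.10% in monosomes of the cytosol. The difference from the cytosol had an adjusted p of 1 unpaired and 0.00349 paired. The difference from differentiating membranes had an unpaired adjusted p of 0.459.

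The most deeply counted of the 28 was Rtn4, an ER-shaping reticulon chosen here after its values were seen. It had 27700 and 35225 reads in polysomes and 11210 and 19309 in monosomes at sites 631 nt apart. Its distal share was 15.7% and 11.9% in polysomes and 9.21% and 6.58% in monosomes (log2 change 0.91, SE 0.31, adjusted p = 1 unpaired and 0.00443 paired).

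**Figure D5:**
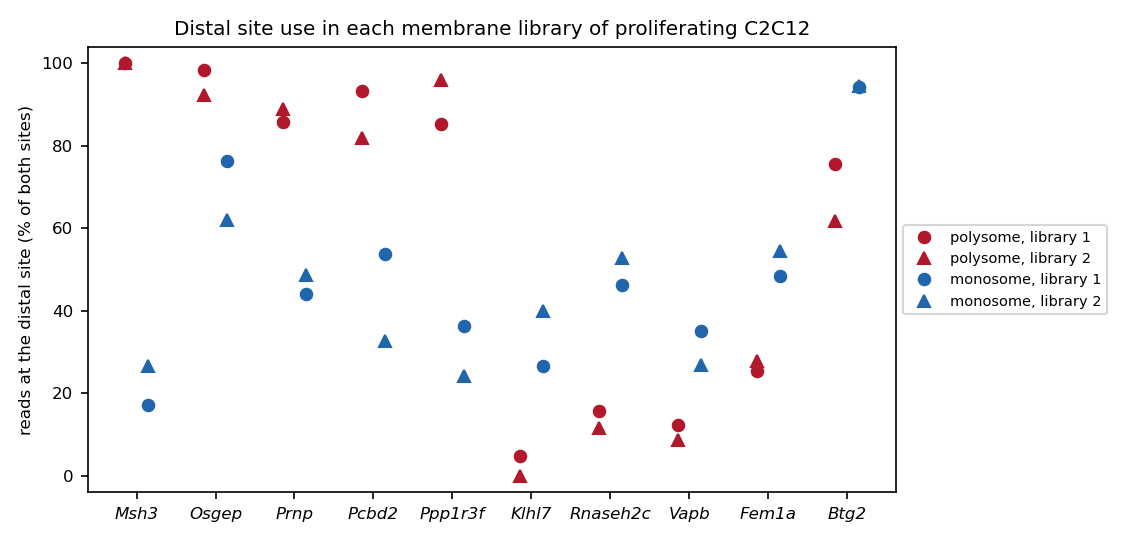
Share of reads at the distal site (percent of both sites) in each membrane library for 10 genes, polysomes in red to the left of monosomes in blue, circles for library 1 and triangles for library 2. Msh3 is at 100% in both polysome libraries and at 17.3% and 26.5% in monosomes.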

How the data were processed

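The authors deposited raw read counts per polyadenylation site and library, with gene symbols; mm9, cutadapt, Bowtie2 and STAR 2.5.2 are named in the submitters' processing notes, with no role given. A read count table of the 3'READS+ libraries was used here; an RNA-seq table was not used. Every count column matched a library by name. Sites were summed per symbol, and reads at the 651 positions with several symbols (0.530% of reads) were left out. Genes were filtered with filterByExpr and fitted with TMM factors and edgeR 4.0.16 (robust quasi-likelihood test, Benjamini-Hochberg threshold 0.05, 2 libraries in each of 8 gradient groups, 16 in all) in R 4.3.3. DESeq2 1.42.0 was an alternative. Standard errors are the log2 change divided by the square root of F. The script was tested on simulated data.

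Site pairs were the 2 most used sites of a gene on its main strand, at most 10 kb apart, with a mean of at least 10 reads and at least 5% of reads at the rarer site. They were fitted with a term for the isoform in each group. Levels of site use per library took a pseudocount of 1 read. Counting error is not the only error, since reads of PCR libraries are not independent molecules.

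Same-numbered polysome and monosome libraries deviated together from their group means in all 4 gradients (correlations 0.63 in the membrane of proliferating cells, 0.48, 0.53 and 0.67 in the others). Same-numbered libraries of different fractions did so too, at 0.469 to 0.579 in proliferating and 0.537 to 0.725 in differentiating cells. Across states the correlations were 0.0985 to 0.255. The shared deviation was thus not particular to a gradient. A paired fit with the number as a block stands beside the unpaired one. The block was per gradient for genes, and per state for site pairs and for differences between fractions or states. The source of the pairing is this check of the data; with 2 libraries a group, each gradient gives 1 correlation. Other alternatives were another scaling, no filter, smaller fits, other site rules and leaving out each library.

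Named genes were up to 12 per direction with the largest change among called genes at 10 CPM or more and the same sign in each number. To these came, per list, the 3 most abundant and the 2 with the lowest p, and for differences between fractions the 5 largest per direction. Clone symbols were passed over. Site pairs named had the lowest p at a mean of 50 reads or more. The members and lists were chosen with earlier results of these data known, and lists are described by counts and medians without a test. RefSeq biotypes and starts were matched by symbol or synonym (11109 of 11176 genes). Some items are not reported here.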

Additional observations from a re-analysis of the deposited data

Results flagged for a closer look

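The polysome to monosome ratio differed between membrane and cytosol for 815 genes by the interaction test of edgeR, and the named genes below differed by that test (log2, membrane minus cytosol). Higher in the membrane were Sgcb by 5.36, Rpn1 by 5.11, Fkbp7 by 5.03, Lrpap1 by 4.965 and Hiat1 by 4.89. Of the genes with the largest rises in membrane polysomes, Txndc5 was higher by 3.81, Bcap31 by 3.66, Evc by 3.62, Tgfbr2 by 2.96, Smpdl3b by 2.82, Selk by 2.675, Atg9a by 2.52 and Ptgfrn by 1.96. Sepw1, lower in polysomes of both fractions, had a ratio 1.77 higher in the membrane.

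Lower in the membrane than in the cytosol were Wdr5b at -3.48, Mex3a at -3.40, Rbbp7 at -3.34, Chmp1b at -3.29 and Ptgir at -3.23. Zfp597, lower in membrane polysomes, had a difference of -2.10, and Anp32e, higher in polysomes of both fractions, had one of -1.75. What sets these differences was not tested.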

How the results depend on the processing

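The count of 89 genes moved to 370 with the DESeq2 test (146 higher, 224 lower), to 2713 with the replicate block per polysome and monosome pair, to 2578 with a block per state and number, to 0 in fits of the 8 proliferating or the 4 membrane libraries, and to between 0 and 25 when 1 library was left out. It was 91 with DESeq2 size factors, which called 67 of the 89 in the same direction, 102 with no filter on low counts (11 higher, 91 lower) and 72 from sites with at least 5% of reads. In place of the 815 genes that differed between membrane and cytosol, DESeq2 gave 1262, the block per state 3180, and leaving out 1 library between 387 and 623. The count of 0 between proliferating and differentiating cells became 1 with DESeq2 and 147 with the block per state. It was 0 each time 1 library was left out.

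The 1 site pair became 4 with DESeq2, 6 with a mean of at least 1 read and 28 with the block per state. The count was 0 at most 2 kb apart, 0 in the fit of the 4 libraries alone and 0 to 2 when 1 library was left out. The 0 pairs that differed between fractions became 11 with the block per state and 1 with a mean of at least 1 read. The difference of the median site ratios was between -0.018 and 0.051 when 1 library was left out. The list medians of collagens (-0.098) and mitochondrial ribosomal proteins (-0.042) changed sign with DESeq2 size factors.

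Of 115 named genes, none changed direction while called. DESeq2 size factors ended 5 calls and added 2, and the block per polysome and monosome pair added 47. Leaving out 1 library ended 26 to 34 of the 34 calls. Apart from these 47 genes and the counts and site pairs above, the block changed no call among the named results. With 2 libraries a group the unpaired test called only large changes, and a gene that did not pass is not shown to be equal in both parts.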
